A study of Oreochromis niloticus with 14 samples.

Results

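The genes described here are 5 hypoxia-responsive genes of the Nile tilapia (Oreochromis niloticus): egln3 (ENSONIG00000001807), ddit4 (ENSONIG00000018504), bhlhe40 (ENSONIG00000020277), znf395a (ENSONIG00000003350) and stc2a (ENSONIG00000017680). They are 5 of the 12902 genes listed for liver and of the 16930 listed for testis, and all 5 are in both tables. They were chosen by name as a group and selected on their measured difference between BaP and control fish in liver, so every liver difference given for them is a description without a test. RNA-Seq covered adult males, given in the labels as one year old, with 4 livers from each treatment and 3 testes from each treatment. BaP fish were injected intraperitoneally 5 times, 6 days apart, with benzo(a)pyrene (BaP) at 3 mg/kg, and control fish with the carrier of DMSO and corn oil alone. Tissues of both groups were taken on day 26. Each treatment had 24 fish, kept at 12 per aquarium. Each aquarium housed one treatment, so aquarium and treatment cannot be told apart.

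Cells sense low oxygen through the hypoxia-inducible factor (HIF), whose alpha subunit is hydroxylated by prolyl hydroxylases of the egln family when oxygen is plentiful and is then degraded. When oxygen falls, the alpha subunit pairs with arnt, the partner that is also used by the aryl hydrocarbon receptor, the receptor of BaP, and switches on genes for oxygen delivery, glycolysis and energy saving. In mammals egln3, ddit4, bhlhe40, znf395 and stc2 are all known to be induced by hypoxia, and several of them also answer to other signals, such as glucocorticoids for ddit4 and the circadian clock for bhlhe40.

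Levels are given as normalized CPM, the reads of a gene per 1000000 of an effective library size that the authors set for each library. Reads on genes numbered between 12485109 and 42836246 per liver library and between 26694344 and 30347667 per testis library. Each member was covered by at least 28 reads in every library. Differences between groups are on the log2(value + 1) scale from limma, fitted over all genes of a tissue, with the standard error (SE). The names of genes come from the list of altered genes of the study, which pairs 1526 IDs with names, so genes that the study did not call altered could not be named. Markers of liver cells separated the tissues: 10 of 16 hepatocyte markers were found by name, and their summed level was between 93514 and 185746 in liver, between 42.3 and 61.6 in control testes, and at 90.3, 694 and 66.2 in BaP testes. In whole tissue, fewer cells of a type and less RNA per cell cannot be told apart.

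In liver 4 of the 5 genes, egln3, ddit4, bhlhe40 and znf395a, were lower in BaP than in control fish and stc2a was higher, and for each of the 5 genes the groups did not overlap. Over all liver genes 3.67% were lower and 4.05% were higher in BaP fish without overlap of the groups, and 6.07% were lower and 5.93% higher at the threshold of the study (p under 0.05 and a fold change over 1.5). Because the members were taken for this difference, nothing is read from their count against these shares. The median log2 difference was -2.64 over the 5 genes, 4 lower and 1 higher, and 0.02 over all liver genes. For the same reason nothing is read from the distance between these medians.

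**Figure D1:**
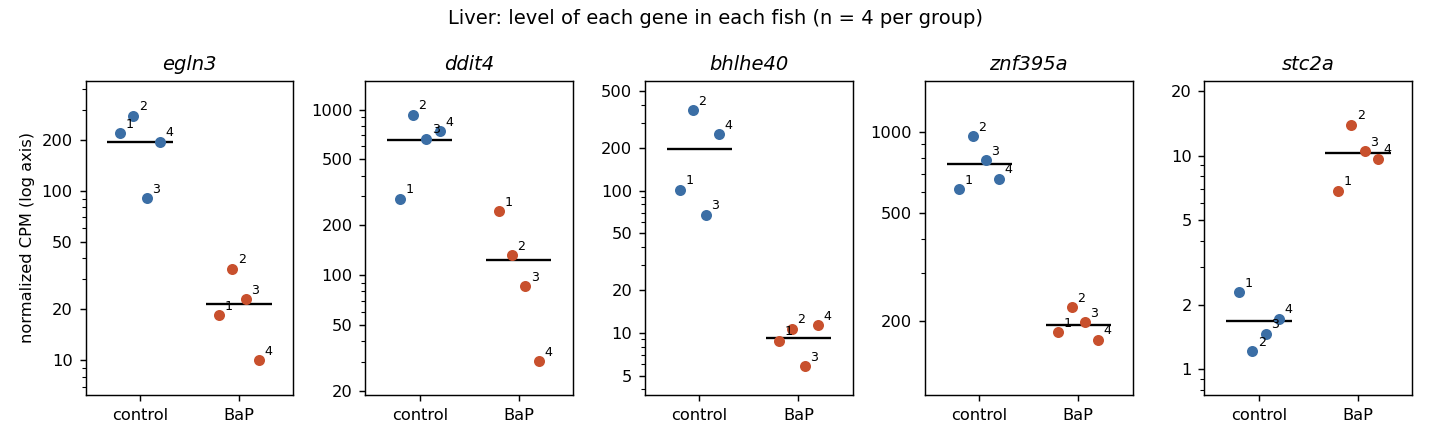
Normalized CPM of each gene in each liver library, on log axes that differ between panels; points are fish, labelled by replicate number, and lines are group means (n = 4 per group). For egln3, ddit4, bhlhe40 and znf395a every control fish lay above every BaP fish, for ddit4 by the narrowest gap (290.0 against 243), and for stc2a every BaP fish lay above every control fish.

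The member with the role of an oxygen sensor, egln3, encodes the prolyl hydroxylase that marks HIF alpha subunits for degradation and is itself a HIF target in mammals. Replicates 1 to 4 of the control had egln3 at 218, 277, 90.6 and 194 normalized CPM, and replicates 1 to 4 of the BaP livers had it at 18.4, 34.7, 22.9 and 10.01. Control replicate 3 was the lowest control, and it was still 2.61-fold above BaP replicate 2, the highest BaP liver. The means were 195 ± 77.9 in control and 21.5 ± 10.3 in BaP fish (SD, n = 4 each), and the log2 difference was -3.14 (SE 0.42).

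The gene with the role of an energy brake, ddit4, encodes a small protein that restrains the growth kinase complex mTORC1 through the tuberous sclerosis proteins. Control livers held ddit4 at 290.0, 930.1, 667 and 740 normalized CPM, and BaP livers at 243, 132, 85.6 and 30.3. This was the closest pair of groups among the members, as control replicate 1 exceeded BaP replicate 1 by only 1.19-fold, and the BaP livers ranged over 8.03-fold. The log2 difference of ddit4 was -2.64 (SE 0.59), with means of 657 ± 268 in control and 123 ± 90.4 in BaP fish (SD, n = 4 each).

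Of the transcription factors, bhlhe40 encodes a repressor that binds E-box elements and feeds back on the circadian clock, and it had the largest difference of the 5 genes. The control livers had bhlhe40 at 102, 370.0, 67.8 and 250.5 normalized CPM and the BaP livers at 8.77, 10.7, 5.84 and 11.3. The controls were spread over 5.46-fold and the BaP livers over 1.93-fold, yet the lowest control, replicate 3, was 6.00-fold above the highest BaP liver. The log2 difference was -4.02 (SE 0.49).

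The zinc finger factor znf395a varied least among fish. Its levels were 613, 961, 785 and 670.0 normalized CPM in control fish, against 182, 224, 198 and 170.3 in BaP fish. At their nearest fish the groups were 2.74-fold apart, and the highest value was 1.57 times the lowest within the controls and 1.32 times within the BaP livers. Its log2 difference was -1.95 (SE 0.22). The name table of RefSeq (assembly O_niloticus_UMD_NMBU) holds a second copy, znf395b, which was not paired with any ID here, and whether reads were shared between the copies was not tested.

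The secreted glycoprotein stanniocalcin 2, encoded by stc2a, went the other way. It was low in the control livers, at 2.28, 1.21, 1.47 and 1.72 normalized CPM, and stood at 6.84, 14.0, 10.5 and 9.70 with BaP. The lowest BaP liver was 2.99-fold above the highest control, and the ratio of the means was 6.14. The log2 difference of 2.05 (SE 0.25) understates this ratio because 1 is added to values that are themselves close to 1. The livers held stc2a in 28 to 504 reads, the thinnest coverage of the 5 genes.

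Within the groups, single fish stood out for several members at once. In the control livers replicate 2 was the highest of 4 for egln3, ddit4, bhlhe40 and znf395a and the lowest for stc2a. Replicate 3 was the lowest control for egln3 and bhlhe40 and replicate 1 for ddit4 and znf395a. In the BaP livers replicate 4 was the lowest for egln3, ddit4 and znf395a but the highest for bhlhe40, and replicate 2 was the highest for egln3, znf395a and stc2a. The BaP livers stood in the same order for egln3 and znf395a, and in other orders for ddit4, bhlhe40 and stc2a. Control liver replicate 2 was also the highest control for other pathway genes described below, such as glut1, hk1 and epo. It was the lowest for hif1an and pgam1a. Such orders were not counted over all genes, so nothing particular to the members is read from them.

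Testis gave the same 5 genes in another tissue. As 6 of the numbers in the titles occur in both tissues, the same animals may have given both, and results of both tissues were known when the genes were picked, so the tests in testis are not independent support. In BaP testes 4 of the 5 genes had a lower mean log2 level, and 1 of the 5, egln3, passed the threshold of the study, where 0.998% of all testis genes were lower at that threshold. By limma with Benjamini-Hochberg adjustment over 16930 genes, 0 of the 5 had an adjusted p under 0.05, as against 0.00591% of all testis genes, and neither edgeR's exact test nor DESeq2, both run on recovered reads, passed any of the 5 after adjustment. Each of those placed 2 of the 5, egln3 and znf395a, at the threshold of the study. Of all 16930 testis genes, edgeR's exact test placed 517 and DESeq2 528 there in either direction, against 369 by limma. The groups did not overlap for egln3 alone, where 2.84% of all testis genes were lower without overlap.

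**Figure D2:**
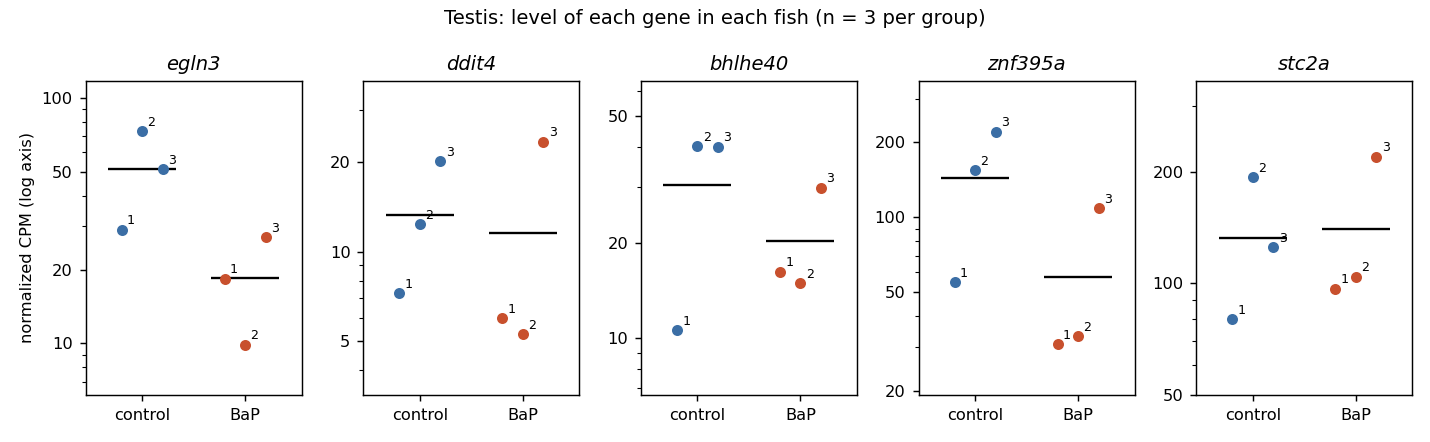
Normalized CPM of each gene in each testis library, on log axes that differ between panels; points are fish, labelled by replicate number, and lines are group means (n = 3 per group). Only egln3 had its groups apart, at 29.1 in the lowest control and 27.1 in the highest BaP testis, and control replicate 1 was the lowest control for all 5 genes.

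In testis egln3 was at 29.1, 73.1 and 51.1 normalized CPM in control and at 18.3, 9.88 and 27.1 in BaP fish. Every BaP testis was below every control testis, but the nearest fish differed by only 1.08-fold. The log2 difference was -1.43 (SE 0.45, 95% interval from -2.50 to -0.37), with an unadjusted p of 0.0157 and an adjusted p of 1.00 from limma. The adjusted p was 0.117 from edgeR's exact test and ranged from 0.117 to 1.00 over all alternatives. Without control replicate 2 the unadjusted p from limma was 0.0556 and the log2 difference -1.13. Without BaP replicate 2, the testis with the highest hepatocyte marker level and the lowest egln3, the difference was -1.07.

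The testis levels of znf395a were 54.8, 155 and 221 normalized CPM in control and 30.8, 33.2 and 109 in BaP fish. The groups overlapped because BaP replicate 3 lay above control replicate 1. The log2 difference was -1.34 (SE 0.66, 95% interval from -2.89 to 0.22, adjusted p of 1.00 from limma). Its unadjusted p was 0.0812 from limma, 0.0103 from edgeR's exact test and 0.0203 from DESeq2. It was 0.0198 by limma without control replicate 1 and 0.0161 without BaP replicate 3, with log2 differences of -1.91 and -1.92. It did not pass without any one of the other 4 testes, where the difference lay between -1.17 and -0.92 and the p from limma between 0.189 and 0.234.

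For the remaining members the testis groups overlapped and the intervals reached to both sides of 0. The gene bhlhe40 was at 10.6, 40.3 and 40.0 in control and at 16.2, 14.9 and 29.8 in BaP testes normalized CPM, a log2 difference of -0.41 (SE 0.54, 95% interval from -1.69 to 0.88, adjusted p of 1.00 from limma). Without control replicate 1, the lowest control, it was -1.01, with an unadjusted p of 0.0240 from limma, which did not pass after adjustment, and it was -0.10 without control replicate 2 and -0.11 without control replicate 3. For ddit4 the control testes were at 7.27, 12.4 and 20.1 and the BaP testes at 5.98, 5.29 and 23.4, a log2 difference of -0.38 (SE 0.59, 95% interval from -1.77 to 1.02, adjusted p of 1.00 from limma). It was -1.003 without BaP replicate 3 (unadjusted p of 0.0507 from limma) and -0.02 without BaP replicate 2. For stc2a they were at 79.9, 193 and 125 in control and at 96.5, 104 and 220 in BaP fish, a difference of 0.06 (SE 0.43, 95% interval from -0.96 to 1.09, adjusted p of 1.00 from limma). The sign for stc2a turned to -0.25 without control replicate 1 and to -0.31 without BaP replicate 3. The difference between the tissues was not tested, since the liver values chose the genes.

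In each testis group the same library stood at one end for every member. Control replicate 1 was the lowest control testis for all 5 genes, and BaP replicate 3 was the highest BaP testis for all 5. Control replicate 1 was also the lowest control testis for other pathway genes described below, such as glut1, pfkfb4b and bnip4. It was the highest for others, such as hk1 and SESN3. The share of all genes with these libraries at an end was not counted, so nothing particular to the members is read from these positions. Control testis replicate 1 and control liver replicate 3 bear the same title number, 18, and that liver was also the lowest control for egln3 and bhlhe40. Among the 3 title numbers that control liver and control testis share, 2 of the 5 genes, egln3 and bhlhe40, had the same order in both tissues. Among the 3 that BaP liver and BaP testis share, it was again 2 of the 5, but znf395a and stc2a, so no gene kept its order between tissues under both treatments. How many of all genes kept their order between tissues was not counted, so nothing is read from these matches.

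Between tissues the control levels differed far more for some members than for others, although the tables were scaled separately and these ratios are coarse. The median of the control fish was 56.8 times as high in liver as in testis for ddit4 (704 against 12.4 normalized CPM). For egln3, bhlhe40 and znf395a it was 4.04, 4.40 and 4.70 times as high in liver. The reverse held for stc2a, whose control median was 78.5 times as high in testis as in liver (125 against 1.59). The BaP livers, at up to 14.0 for stc2a, remained below the lowest testis, at 79.9.

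Red cell transcripts had a lower median in BaP than in control fish in both tissues (257 against 1533 in liver and 80.2 against 443 in testis), with overlapping groups, and nucleated red cells of fish carry mRNA, so their level is given beside these results. Of 10 red cell markers, 3 symbols were found by name as 4 genes: a pair of beta globin genes, alas2, the first enzyme of haem synthesis in red cells, and slc4a1a, their anion exchanger. None of the 4 was at 0 in any library. Markers could be named only if the study called them altered in these libraries. The sums therefore describe that choice and are not independent evidence of a change in red cells. Their summed level was 1682, 3197, 173 and 1384 normalized CPM in control replicates 1 to 4 of liver, against 146, 805, 348 and 165 with BaP. In testis it was 55.6, 655 and 443 in control and 80.2, 41.3 and 84.3 in BaP fish. For egln3 the fish of a group stood in the same order as their red cell level in 3 of the 4 groups, all but the BaP livers. The orders were the same in 2 of the 4 groups for bhlhe40 and stc2a, in 1 for ddit4 and in 0 for znf395a. The share of other genes with the same order was not counted, so nothing is read from these matches. The part of red cells in the differences was not tested. Control liver replicate 3, with a red cell level of 173 inside the BaP range of 146 to 805, had egln3 at 90.6, ddit4 at 667, bhlhe40 at 67.8 and znf395a at 785, each above every BaP liver, and stc2a at 1.47, below every BaP liver. The genes were chosen for their liver difference and their liver groups did not overlap, so every control liver lay so at any red cell level. Nothing about the part of red cells is read from these liver values. In testis control replicate 1, at a red cell level of 55.6 inside the BaP range of 41.3 to 84.3, had egln3 at 29.1, above the highest BaP testis at 27.1, and its ddit4, bhlhe40, znf395a and stc2a lay within or below the BaP values.

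**Figure D3:**
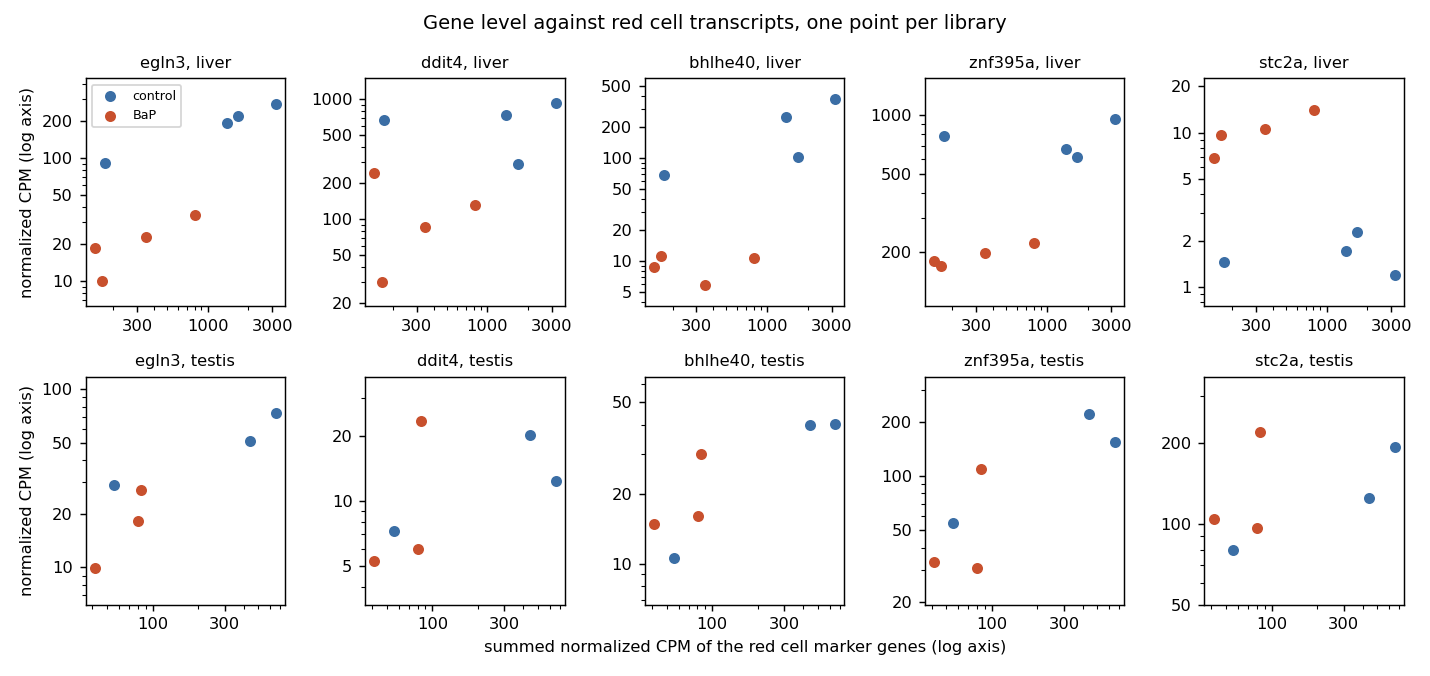
Normalized CPM of each gene (vertical, log axis) against the summed normalized CPM of the 4 red cell marker genes (horizontal, log axis) in each library, for liver (upper row, 8 libraries) and testis (lower row, 6 libraries), with control fish in blue and BaP fish in red. The control liver with the red cell level of 173 had egln3 at 90.6 and stc2a at 1.47, and the control testis at 55.6 had egln3 at 29.1 and stc2a at 79.9.

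Liver samples of tilapia also held pancreas transcripts. The summed level of the 3 exocrine pancreas markers found of 15 was between 6111 and 17713 in control and between 16322 and 19315 in BaP livers. Hepatocyte markers were between 93514 and 130766 in control livers, with a median of 99820. In BaP livers they were between 123855 and 185746, with a median of 155004. The liver groups overlapped for pancreas and for hepatocyte markers. In testis the pancreas markers were at 2.47, 4.20 and 3.88 in control and at 5.98, 62.3 and 142.8 in BaP fish, so that these groups, like those of the hepatocyte markers, did not overlap. The BaP testis with the highest pancreas level, replicate 3, was also the highest BaP testis for all 5 genes. Replicate 2, with the next highest pancreas level and the highest hepatocyte level, was the lowest BaP testis for egln3, ddit4 and bhlhe40. Nothing is read from these matches. Pancreas and hepatocyte markers, too, could be named only if the study called them altered, so differences between their groups are not independent evidence. The part of either cell type in the differences of the 5 genes was not tested.

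The wider hypoxia pathway was followed with a list of 90 symbols for oxygen sensing, glycolysis, mitochondria, oxygen delivery, growth restraint, transcription factors and secreted proteins. Since names were given only to genes that the study called altered in these libraries, 23 of the 90 could be found, and the counts describe that choice and are not independent evidence of a direction. Without the 5 members, 18 genes remained. In liver 13 of the 18 were lower and 1 was higher at the threshold of the study, and 4 passed in neither direction. Over all liver genes 6.07% were lower and 5.93% higher at that threshold. By limma 0 of the 18 had an adjusted p under 0.05, against 9 of all 12902 liver genes. Nothing is read from the counts against these shares, as the genes were named for being altered. Their median log2 difference was -1.10, against 0.02 over all liver genes. In testis, which tested 17 of them, 0 were lower and 2, slc2a3b and tfr1b, were higher. Over all testis genes 0.998% were lower and 1.18% higher at that threshold. By limma 0 of the 17 had an adjusted p under 0.05, against 1 of all 16930 testis genes. The median log2 difference in testis was -0.18, against -0.02 over all testis genes. The count of 0 lower genes at the threshold of the study became 3 with edgeR's exact test, 3 with DESeq2 and 4 by limma without control replicate 1. Over all testis genes the count in either direction rose as well, from 369 to 517, 528 and 784 in the same order. Nothing is read from the rise among the pathway genes.

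**Figure D4:**
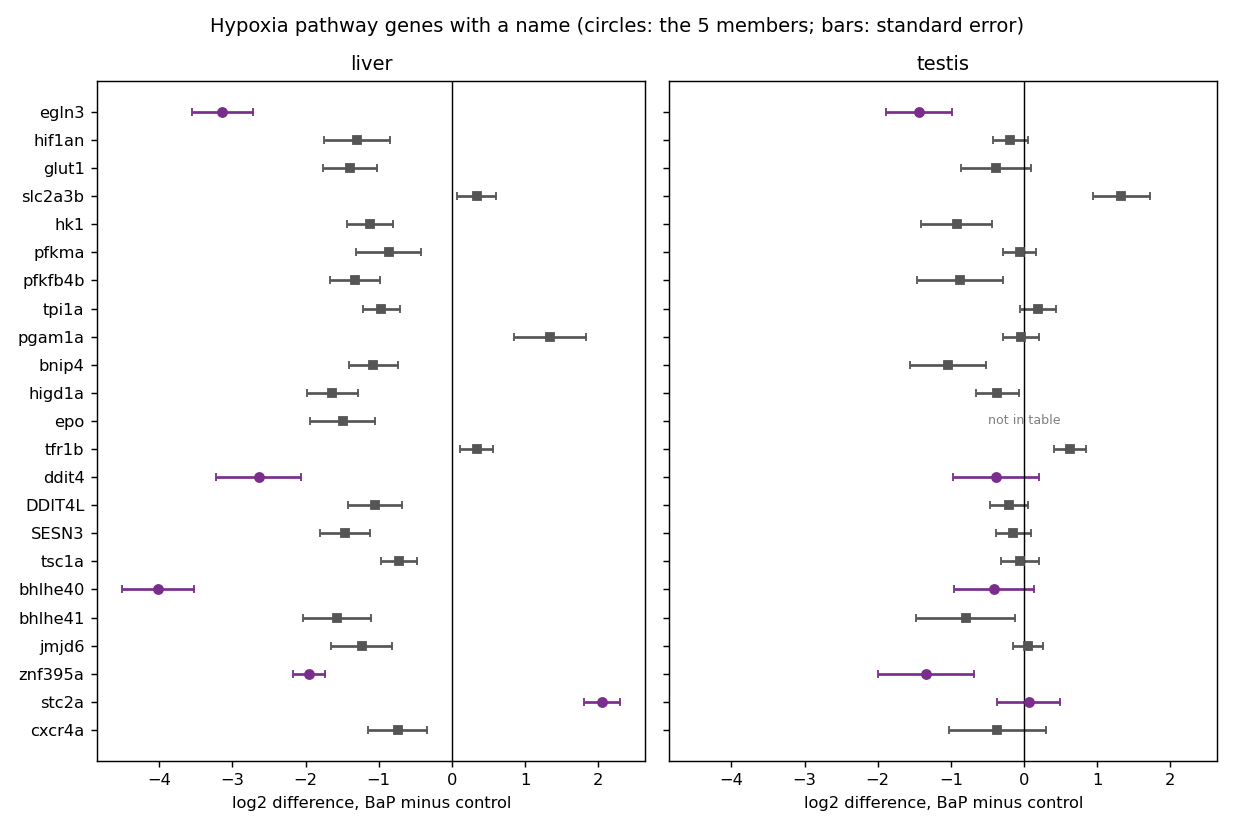
Log2 difference (BaP minus control) with its standard error for the 23 pathway genes that have a name, in liver and testis; circles are the 5 members, squares the other genes. In liver 19 of the 23 lie left of 0, with stc2a and pgam1a farthest to the right, and in testis ddit4, bhlhe40 and stc2a lie between -0.41 and 0.06.

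Among the oxygen sensors, hif1an, the asparaginyl hydroxylase that blunts HIF activity, was at 17.8 to 32.3 normalized CPM in control and at 2.70 to 17.9 in BaP livers, with overlapping groups and a log2 difference of -1.30 (SE 0.45). The hormone gene epo, which drives the making of red cells, was at 15.7, 32.8, 8.22 and 24.8 normalized CPM in control fish and at 3.38, 8.69, 9.35 and 3.84 in BaP fish. Its groups overlapped through control replicate 3, the fish that was also lowest for egln3 and bhlhe40, and its log2 difference was -1.49 (SE 0.44). The testis table does not list epo.

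Of the glucose genes, glut1, a glucose transporter paired with human SLC2A1, was at 7.64 to 26.4 in control and at 2.56 to 6.50 in BaP livers, with groups apart and a log2 difference of -1.39 (SE 0.37). The groups were also apart for hk1, a hexokinase (8.19 to 24.1 against 5.09 to 7.80), and for pfkfb4b, an enzyme that sets the pace of glycolysis (33.7 to 91.8 against 12.1 to 25.2). The glycolytic gene tpi1a was near its detection limit, at 0.419 to 1.89 in control and at 0 in 3 of the 4 BaP livers. The phosphoglycerate mutase gene pgam1a was higher, by 1.34 (SE 0.49), with overlapping groups, and pfkma did not pass the threshold. In testis slc2a3b, another glucose transporter, was at 2.55 to 7.73 in control and at 9.91 to 19.6 in BaP fish, a log2 difference of 1.33 (SE 0.39).

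The mitochondrial genes higd1a and bnip4, the latter paired with human BNIP3, had log2 differences in liver of -1.63 (SE 0.35) and -1.07 (SE 0.33). The groups overlapped for bnip4 but not for higd1a. The 3 restrainers of growth found beside ddit4, from a list of 10 symbols, were lower with their groups apart. Over all liver genes 3.67% were lower without overlap, and these 3 had names only because the study called them altered. The nearest fish were 1.05-fold apart for DDIT4L, the paralogue of ddit4 (0.262 to 4.06 against 0.0899 to 0.250, in part under 3 reads). They were 1.29-fold apart for SESN3, a sestrin (61.3 to 137 against 21.1 to 47.6). For tsc1a, a subunit of the complex through which ddit4 acts, they were 1.06-fold apart (38.6 to 50.6 against 20.2 to 36.3). The closest relative of bhlhe40, bhlhe41, was at 5.13 to 18.5 in control and at 1.32 to 6.08 in BaP livers. Its groups overlapped, and its log2 difference was -1.57 (SE 0.46). The hydroxylase gene jmjd6 differed in liver by -1.23 (SE 0.42), with overlapping groups, and the chemokine receptor gene cxcr4a did not pass the threshold in either tissue. The transferrin receptor gene tfr1b, which takes up iron, was higher in testis, at 58.4 to 79.4 against 39.5 to 51.2, and passed there only.

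Likeness of pattern was measured as the root mean square difference of log2(value + 1) over all 14 libraries, each gene centred within its tissue, among 12376 other genes. The groups form separate clusters, so no correlation is given, and the named neighbours are themselves genes of the study's list of altered genes. The gene nearest to bhlhe40 of all was egln3 (0.75), followed by NCOA7, a nuclear receptor coactivator (0.76). The transcription factor gene tefb, a circadian output factor, was the gene nearest to egln3 (0.55) and among the named genes also the nearest to znf395a (0.40) and the second nearest to ddit4 (0.65). The other named neighbours were mibp for egln3 (0.58), RASGEF1B for ddit4 (0.58) and pfkfb4b for znf395a (0.47). For stc2a they were prkag2b, a subunit of the energy-sensing kinase AMPK (0.42), and gart, an enzyme of purine synthesis (0.44). Among the members themselves the difference ranged from 0.71 (egln3 and znf395a) to 1.01 (bhlhe40 and znf395a), and stc2a differed from each of the others by between 1.63 and 2.39. Without stc2a, their ranks among the 12376 genes ran from 1 (egln3 seen from bhlhe40) to 3492 (bhlhe40 seen from znf395a). Seen from znf395a, egln3 was at rank 109 and ddit4 at rank 192. The measure includes the liver difference that chose the genes, so nothing is read from these values.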

How the data were processed

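The authors trimmed the reads, aligned them with TopHat and tested them with edgeR (tools also named in the submitters' processing notes); genome build, annotation and counting program are not given in the sources used here. The deposited values are a normalized signal: reads per gene divided by an effective library size and scaled to 1000000. In each library a single read had a fixed worth, so whole reads could be recovered (100% of values within 0.05 of a whole number), and these reads with recomputed TMM factors gave the deposited scaling. The factors ranged from 0.858 to 1.19, and 3 reads equal 0.0646 to 0.270 normalized CPM, a floor for counting error only.

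Groups were taken from the sample titles. limma 3.58.1 was fitted per tissue to log2(value + 1) over all genes, two-sided, with Benjamini-Hochberg adjustment. The threshold of the study asks for p under 0.05 before adjustment together with a change of more than 1.5-fold. Tests were checked on simulated data. Alternatives were a pseudocount of 0.1, edgeR 4.0.16 (exact and quasi-likelihood tests) and DESeq2 1.42.0 on recovered reads, library size scaling, a filter (values of at least 1 in 3 libraries), a replicate block and leaving out each fish. The p-values measure the spread between fish and take no account of which fish shared an aquarium.

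The members, lists and tests were chosen with earlier results of these data known. Named genes are the members, the pathway genes that the study's supplementary list pairs with an ID (symbol, or symbol with a or b) and, for each member, the 2 named genes nearest in pattern. The symbols of all 5 members are in the RefSeq table, which holds no matching IDs. No sequences were analysed here.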

Additional observations from a re-analysis of the deposited data

Results flagged for a closer look

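Of 46 groups of 4 livers examined for the members and the pathway genes, 4 held a fish far from the other 3 by Dixon's criterion. The criterion marks about 1 in 20 groups of independent normal values. Here the levels were not logged and all genes share the same livers, so that rate may not hold. None of them was a group of egln3, ddit4, bhlhe40, znf395a or stc2a. The glycolytic gene pfkma stood at 393 normalized CPM in control replicate 2, against 81.0 to 126 in the other controls, and at 55.9 in BaP replicate 2, against 82.8 to 85.1 in the other BaP livers. The mitochondrial gene higd1a was at 28.8 in BaP replicate 1, against 11.0 to 13.0 in the other BaP livers. The gene tpi1a was at 0.208 in BaP replicate 4 and at 0 in the other BaP livers, and 0.208 is above the level of 3 reads in that library, 0.104. Where all other values of a group are 0, the criterion marks any value above 0. No cause of these values was tested.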

How the results depend on the processing

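All 5 liver differences kept their sign and exceeded 1.5-fold under each of the 15 alternatives. The log2 difference ranged from -3.47 to -2.83 for egln3, from -3.09 to -2.10 for ddit4, from -4.45 to -3.61 for bhlhe40, from -2.15 to -1.83 for znf395a and from 1.90 to 2.62 for stc2a. For stc2a it was 2.54 with a pseudocount of 0.1, and 2.62 (both edgeR tests) and 2.61 (DESeq2) on reads, since adding 1 shrinks low values. Library size scaling moved the median of all liver genes to -0.16. The count of other pathway genes lower in liver, 13, lay between 12 and 15. In testis the number of members at the threshold of the study, 1, was 2 with edgeR's exact test, DESeq2 and the replicate block, and between 0 and 3 with one fish left out. The number of other pathway genes lower in testis, 0, was 3 with edgeR's exact test, 3 with DESeq2 and 3 with the replicate block, and between 0 and 4 with one fish left out. The sign of stc2a in testis changed with one fish left out (from -0.31 to 0.38). Of the 10 nearest-gene pairs, 8 were kept with a pseudocount of 0.1 and 4 with the liver libraries alone. The titles number the replicates but do not say that same-numbered fish are paired. Deviations of same-numbered fish correlated from -0.02 to 0.20 in liver and from -0.08 to 0.37 in testis. Those of differently numbered fish correlated from -0.17 to 0.16 in liver and from -0.37 to 0.24 in testis. With so few fish per group these values cannot decide whether fish were paired. The cause of these shifts was not tested. Over all testis genes the count at the threshold of the study, 369, was 517 with edgeR's exact test, 528 with DESeq2 and 589 with the replicate block. It was 567 without control replicate 3, 784 without control replicate 1 and 829 without BaP replicate 3. The adjusted count, 1, was 49 with edgeR's exact test and 54 with DESeq2. Over all liver genes the count at that threshold, 1548, was 2370 without control replicate 3. With 3 fish per group the testis intervals stayed wide.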
